A study of Homo sapiens with 8 samples.

Results

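The genes described are 10 cancer-testis antigen genes, chosen by symbol from a table of 25906 genes: CTAG1B, CTAG2, PAGE5, PAGE2, MAGEA1, MAGEA3, MAGEA6, MAGEC1, MAGEC2 and SSX1. All 10 had a row in the table, all 10 lie on chromosome X, and 8 of them reached at least 1 FPKM (fragments per kilobase of transcript scaled to the mapped fragments of the library, a level per unit of transcript length) in at least 2 libraries. The study measured RNA from MM.1S and NCI-H929, a pair of established human multiple myeloma cell lines, 72 hours after lentiviral transduction with CTBP2 or with the empty vector (EV), which the labels name as the control. Each combination of line and vector has 2 libraries, described as biological duplicates, which gives 8 libraries in 4 groups. CTBP2 is a transcriptional corepressor that binds repressor proteins and brings chromatin-modifying enzymes to their target genes. The question was how overexpressed CTBP2 changes the transcriptome of these myeloma cells, and here how the antigen genes fared.

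Cancer-testis antigens are proteins made in male germ cells and in tumours but in few other adult tissues. Their genes are usually silenced in somatic cells by DNA methylation of the promoter and by repressive chromatin, and lose that silencing in many cancers. Because normal plasma cells lack them, several, among them the CTAG1B product NY-ESO-1 and the MAGE-A and MAGE-C proteins, have served as vaccine and T cell targets in multiple myeloma.

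The line of each library was read from expression: FGFR3, a receptor tyrosine kinase that a translocation activates in NCI-H929, above 10 FPKM marked NCI-H929, and CCND2, a D-type cyclin, above 10 FPKM marked MM.1S. FGFR3 was at 13.6 FPKM or more in 4 libraries, called FGFR3-high below, and at 0.0570 FPKM or less in the others. CCND2 was at 0.0633 FPKM or less in the FGFR3-high libraries and at 46.7 FPKM or more in the other 4, called CCND2-high. By this reading 2 libraries went against their labels. Replicate 2 of CTBP2 in MM.1S, as labelled, was FGFR3-high. Replicate 2 of CTBP2 in NCI-H929, as labelled, was CCND2-high. Tested changes of the antigens, and of most other genes named, are given with these libraries and, beside that, without both of them. CTBP2 itself was at 5884 and 3427 FPKM in the FGFR3-high CTBP2 libraries against 0.148 and 0.184 FPKM in the FGFR3-high EV libraries, and at 2145 and 1621 FPKM in the CCND2-high CTBP2 libraries against 0.213 and 0.201 FPKM in the CCND2-high EV libraries, so the vector labels held. The spacing of low FPKM values put the depth at an estimated 16000000 to 21100000 fragments a library, with 57.8 to 69.4% of such values within 0.1 of a whole fragment number, where chance gives 20%. All 12 plasma cell markers in the table reached 1 FPKM, while only 3 of 23 germ cell genes did.

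Promoter sequence is shown first for the antigen genes that form close pairs: PAGE5 and PAGE2, and MAGEC1 and MAGEC2, where members of a pair were at very different levels, and MAGEA3 and MAGEA6, which were on in the same libraries. Each sequence holds the 250 bases before the annotated start from RefSeq (GRCh38.p14), written 5′ to 3′ on the gene's strand, with every CG dinucleotide, the site of DNA methylation, in capitals. The RefSeq table at hand held promoters of 7 of the 10 genes. PAGE5 (chrX:55220096-55220345, plus strand) has 9 CG and PAGE2 (chrX:55088768-55089017, plus strand) has 11, and the aligned parts are 87.0% identical.
PAGE5: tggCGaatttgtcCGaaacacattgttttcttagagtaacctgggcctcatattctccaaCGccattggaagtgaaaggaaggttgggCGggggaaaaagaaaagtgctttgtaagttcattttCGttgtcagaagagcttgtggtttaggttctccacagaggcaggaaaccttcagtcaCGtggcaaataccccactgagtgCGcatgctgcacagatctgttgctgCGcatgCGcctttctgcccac
PAGE2: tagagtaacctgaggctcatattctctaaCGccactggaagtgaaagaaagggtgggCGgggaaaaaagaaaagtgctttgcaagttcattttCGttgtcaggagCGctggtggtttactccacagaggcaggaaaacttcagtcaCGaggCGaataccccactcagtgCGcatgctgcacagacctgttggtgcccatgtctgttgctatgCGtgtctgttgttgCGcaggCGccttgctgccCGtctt
MAGEC1 (chrX:141903644-141903893, plus strand) has 11 CG and MAGEC2 (chrX:142205291-142205540, minus strand) has 6, with 83.9% identity over the aligned part.
MAGEC1: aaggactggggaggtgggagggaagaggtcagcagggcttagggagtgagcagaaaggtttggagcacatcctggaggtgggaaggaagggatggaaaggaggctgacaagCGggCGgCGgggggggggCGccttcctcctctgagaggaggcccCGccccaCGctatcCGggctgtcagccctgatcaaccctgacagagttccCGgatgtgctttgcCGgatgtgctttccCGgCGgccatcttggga
MAGEC2: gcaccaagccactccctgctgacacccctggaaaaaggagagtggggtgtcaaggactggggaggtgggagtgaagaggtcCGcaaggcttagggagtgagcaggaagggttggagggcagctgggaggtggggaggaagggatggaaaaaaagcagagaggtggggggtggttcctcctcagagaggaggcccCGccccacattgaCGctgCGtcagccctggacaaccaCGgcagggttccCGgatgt
MAGEA3 (chrX:152698544-152698793, plus strand) and MAGEA6 (chrX:152769690-152769939, minus strand) have the same 250 bases, with 15 CG.
MAGEA3 and MAGEA6: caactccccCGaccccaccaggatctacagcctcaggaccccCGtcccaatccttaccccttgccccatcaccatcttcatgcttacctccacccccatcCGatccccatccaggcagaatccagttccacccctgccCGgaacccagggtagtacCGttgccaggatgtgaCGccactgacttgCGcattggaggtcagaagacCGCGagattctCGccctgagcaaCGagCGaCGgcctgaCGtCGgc
The median over 35116 RefSeq promoters was 11 CG in the same window, against 6 to 15 in the windows shown and 3 in that of SSX1. The letters CCGGAT, an ETS-type core searched on both strands, occur 3 times in the MAGEC1 window and once in that of MAGEC2, and in 5.85% of all promoters. The MAGEC1 window runs on past the stretch at which that of MAGEC2 ends, and holds some of its CCGGAT and CG there. The differences in these counts thus partly follow the annotated starts. The letters CCGGAA, a further ETS-type core searched on both strands, occur once in the MAGEA3 window and in 14.5% of all promoters. Such matches describe the sequence only.

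By line, 7 of the 10 genes were on in FGFR3-high libraries and off in CCND2-high ones: CTAG1B, CTAG2, PAGE5, MAGEA3, MAGEA6, MAGEC1 and SSX1 were at 1 FPKM or more in all 4 libraries of the FGFR3-high kind and under 1 FPKM in all 4 of the CCND2-high kind. Of the 12583 genes that passed the filter on low values, 3.62% showed that pattern. Since the genes were chosen with these levels in view, the line difference is given as values, with no test. The rule's reading of the line decides it: under the labels, each line would hold one CTBP2 library that goes with the other.

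PAGE5, of the PAGE family of X-linked antigens, was the most abundant. It was at 360 and 247 FPKM in FGFR3-high CTBP2 libraries and 309 and 245 FPKM in FGFR3-high EV libraries, against 0.122 and 0 FPKM in CCND2-high CTBP2 libraries and 0.153 and 0 FPKM in CCND2-high EV libraries. Its lowest FGFR3-high value was 1601 times its highest CCND2-high value. Its close relative PAGE2 was at 0.123 and 0.142 FPKM in FGFR3-high CTBP2 libraries, at 0.180 and 0.0412 FPKM in FGFR3-high EV libraries, and was listed at 0 in all 4 CCND2-high libraries. A single fragment on the PAGE2 transcript corresponds to about 0.0976 FPKM at the estimated depth. The value of 0.0412 FPKM lies below that, so the conversion is only approximate. On that rough scale no library was above the level of a few fragments. Of 100-base windows of the PAGE2 transcript, 15.3% are also in its copy PAGE2B.

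The CTAG genes encode the NY-ESO-1 family, small antigens that T cells recognise in several tumours. CTAG1B was at 112 and 72.6 FPKM in FGFR3-high CTBP2 libraries and 224 and 202 FPKM in FGFR3-high EV libraries, and at 0.0487 FPKM or less in the CCND2-high libraries. CTAG2, which encodes the related antigen LAGE-1, was at 15.2 and 8.40 FPKM in FGFR3-high CTBP2 libraries and 29.1 and 20.8 FPKM in FGFR3-high EV libraries, and was listed at 0 in every CCND2-high library. For both genes both CTBP2 libraries were below both EV libraries within the FGFR3-high libraries, which held for 31% of all genes tested. All windows of 100 bases in the CTAG1B transcript are also found in its copy CTAG1A, which has no row of its own in the table, and 26.8% of those of CTAG2 are shared with CTAG1A or CTAG1B. The CTAG1B row can thus hold fragments of either copy.

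The MAGE genes encode partners and regulators of ubiquitin ligases. MAGEA3 was at 109 and 90.6 FPKM in FGFR3-high CTBP2 libraries and 159 and 133 FPKM in FGFR3-high EV libraries, and at 0.157 FPKM or less in CCND2-high libraries. MAGEA6, its near copy, was at 71.5 and 71.7 FPKM in FGFR3-high CTBP2 libraries and 101 and 98.0 FPKM in FGFR3-high EV libraries, and at 0.0435 FPKM or less in CCND2-high libraries. Of 100-base windows, 37.6% of the MAGEA3 transcript and 36.1% of the MAGEA6 transcript are shared between the pair, so their levels are not fully separate measurements. MAGEC1, known as the myeloma antigen CT7, was at 21.4 and 26.1 FPKM in FGFR3-high CTBP2 libraries and 43.2 and 39.1 FPKM in FGFR3-high EV libraries, and at 0.0745 FPKM or less in CCND2-high libraries. Its neighbour MAGEC2, with the similar promoter shown above, was at 0.302 and 0.178 FPKM in FGFR3-high CTBP2 libraries, 0.0267 and 0.0886 FPKM in FGFR3-high EV libraries, and 0.0612 FPKM or less in CCND2-high libraries. So MAGEC1 was on and MAGEC2 close to 0 in the same libraries.

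SSX1, a nuclear repressor protein best known as a fusion partner in synovial sarcoma, was at 89.6 and 63.2 FPKM in FGFR3-high CTBP2 libraries and 106 and 95.7 FPKM in FGFR3-high EV libraries, and at 0.118 FPKM or less in CCND2-high libraries.

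MAGEA1, the founding member of the MAGE family, stood apart in being on in both lines. It was at 57.0 and 40.6 FPKM in FGFR3-high CTBP2 libraries against 99.3 and 72.1 FPKM in FGFR3-high EV libraries, and at 35.1 and 52.9 FPKM in CCND2-high CTBP2 libraries against 54.2 and 68.0 FPKM in CCND2-high EV libraries. The lines overlapped, and in each line both CTBP2 libraries were below both EV libraries. In FGFR3-high libraries 31% of all genes tested had that order, and the share in CCND2-high libraries was not counted. No 100-base window of its transcript is found in another gene.

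**Figure D1:**
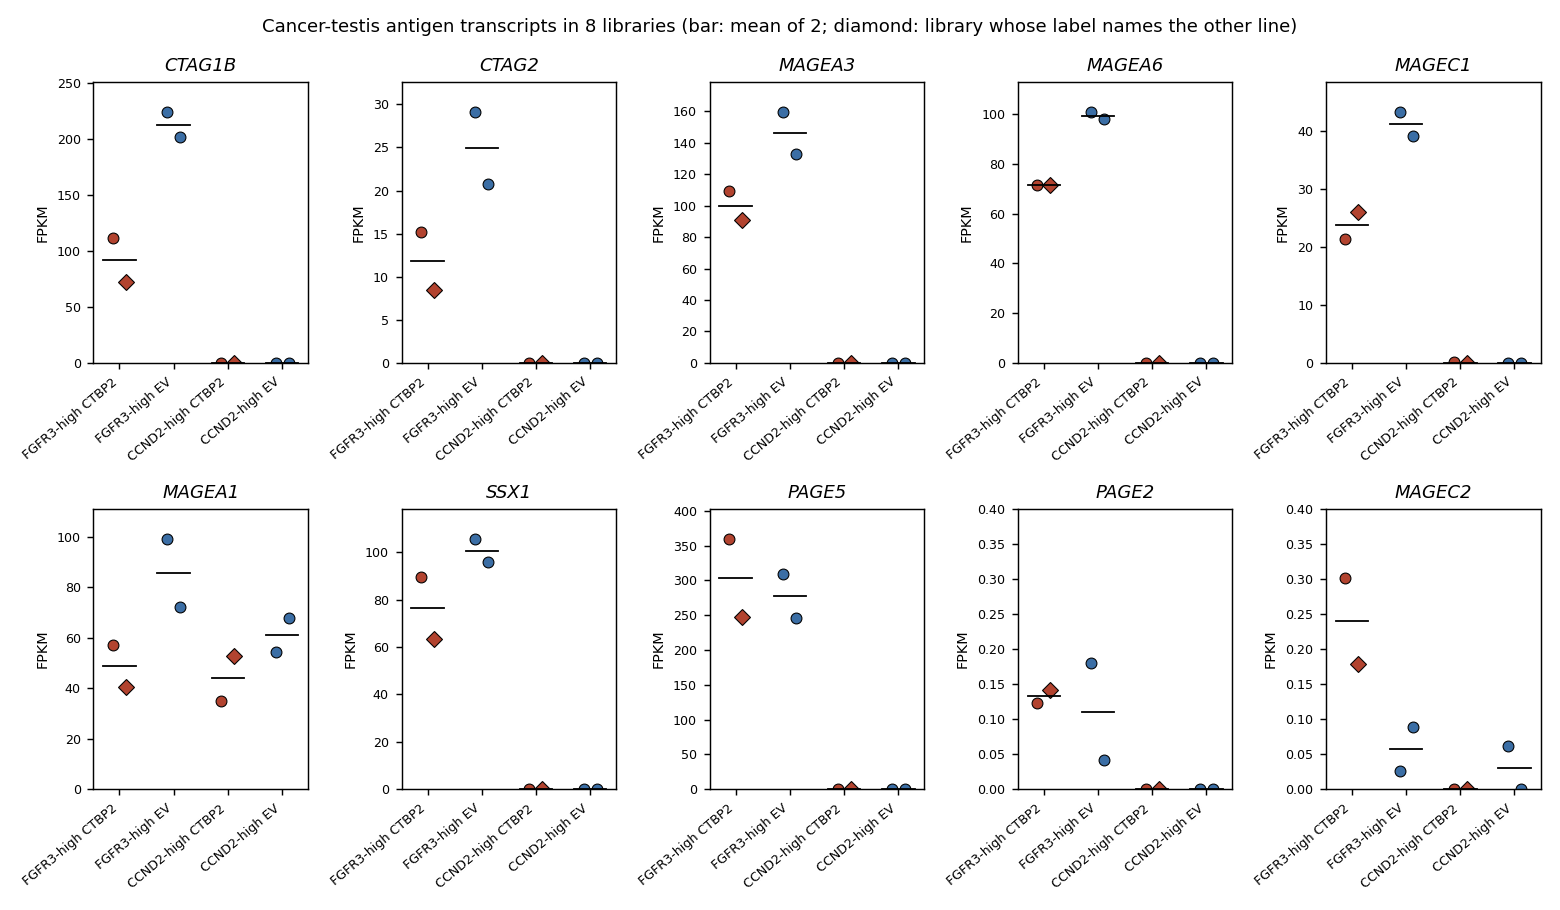
Level of each of the 10 genes in FPKM (vertical axis, linear, scaled per gene) in each of the 8 libraries, grouped on the horizontal axis by line as read from FGFR3 and CCND2 and by vector. Points are libraries, bars are means of 2, and diamonds are the libraries whose label names the other line; 7 genes have points above 1 FPKM in FGFR3-high libraries alone, MAGEA1 in all 8, and PAGE2 and MAGEC2 stay under 0.4 FPKM.

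Per unit of transcript length, the order of the genes in FGFR3-high EV libraries was PAGE5 at 277 ± 45.2 FPKM, CTAG1B at 213 ± 15.5 FPKM, MAGEA3 at 146 ± 18.5 FPKM, SSX1 at 101 ± 7.05 FPKM, MAGEA6 at 99.4 ± 1.97 FPKM, MAGEA1 at 85.7 ± 19.2 FPKM, MAGEC1 at 41.2 ± 2.93 FPKM and CTAG2 at 24.9 ± 5.86 FPKM (SD, n = 2). SSX1, MAGEA6 and MAGEA1 overlapped with each other, and the other neighbours in the order did not. In FGFR3-high CTBP2 libraries CTAG1B, at 92.3 ± 27.8 FPKM, no longer stood above MAGEA3, at 100.03 ± 13.3 FPKM (SD, n = 2), and their values overlapped. By their FGFR3-high EV level, these 8 genes stood above 89.2 to 99.0% of all genes in the table.

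Within the FGFR3-high libraries CTBP2 went with lower antigen transcripts. Of the 8 genes that passed the filter, 5 fell and none rose: CTAG1B, CTAG2, MAGEC1, MAGEA3 and MAGEA6 (limma on log2(FPKM + 1), Benjamini-Hochberg adjusted p below 0.05 over 12583 genes). Of all genes tested, 14.6% fell in this comparison and 32.9% were called in either direction. The size of the fall was largest for CTAG1B, whose mean was 92.3 ± 27.8 FPKM in CTBP2 libraries and 213 ± 15.5 FPKM in EV libraries (SD, n = 2), a ratio of 0.433. On the log2 scale it fell by 1.23 (SE 0.20, limma adjusted p = 0.00509). CTAG2 averaged 11.8 ± 4.80 FPKM in CTBP2 libraries and 24.9 ± 5.86 FPKM in EV libraries, a ratio of 0.473 (log2 fold change -1.05, SE 0.26, limma adjusted p = 0.0194). MAGEC1 averaged 23.8 ± 3.32 FPKM in CTBP2 libraries and 41.2 ± 2.93 FPKM in EV libraries, a ratio of 0.577 (log2 fold change -0.77, SE 0.15, limma adjusted p = 0.00919).

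The near copies MAGEA3 and MAGEA6 moved less. MAGEA3 averaged 100.03 ± 13.3 FPKM in CTBP2 libraries and 146 ± 18.5 FPKM in EV libraries, a ratio of 0.684 (log2 fold change -0.54, limma adjusted p = 0.0371). MAGEA6 averaged 71.6 ± 0.0995 FPKM in CTBP2 libraries and 99.4 ± 1.97 FPKM in EV libraries, a ratio of 0.720 (log2 fold change -0.47, limma adjusted p = 0.0299). MAGEA1 had a ratio of 0.570 and lay at -0.80 on the log2 scale (SE 0.27, limma adjusted p = 0.0508), which misses the threshold of 0.05, and at -0.56 without both CTBP2 replicate 2 libraries (limma adjusted p = 0.173). SSX1 had a ratio of 0.759 and a log2 fold change of -0.41, with a 95% interval of -0.84 to 0.02 (limma adjusted p = 0.122), and of -0.17 without both CTBP2 replicate 2 libraries (limma adjusted p = 0.591). For PAGE5 the ratio was 1.09 and the log2 fold change 0.11, with a 95% interval of -0.38 to 0.60 (limma adjusted p = 0.708), an interval that holds both a fall and a rise; without both CTBP2 replicate 2 libraries it was 0.38 (limma adjusted p = 0.260). In 7 of the 8 genes, all but PAGE5, both CTBP2 libraries were below both EV libraries, which held for 31% of all genes tested. In bulk RNA, fewer cells carrying a transcript and less of it per cell cannot be told apart.

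The number of calls depended on single libraries, on the pairing by replicate number, on the pseudocount, on the filter and on the scaling. Leaving out NCI-H929 EV replicate 1 left 1 call, that of CTAG1B, and leaving out the library labelled MM.1S CTBP2 replicate 2 left those of CTAG1B and MAGEC1. With a pseudocount of 0.1, MAGEA3 (limma adjusted p = 0.189) and MAGEA6 (limma adjusted p = 0.115) were not called. Without both CTBP2 replicate 2 libraries, CTAG1B (log2 fold change -0.92, limma adjusted p = 0.0209) and MAGEC1 (log2 fold change -0.91, limma adjusted p = 0.0207) were still called lower, where 7.41% of all genes were. CTAG2 then had a log2 fold change of -0.66 (limma adjusted p = 0.0910), MAGEA3 -0.41 (limma adjusted p = 0.193) and MAGEA6 -0.47 (limma adjusted p = 0.119). Here a single CTBP2 library stands for the group and is assumed to vary like the others. With the replicate number as a block, 7 genes were called lower, adding SSX1 (limma adjusted p = 0.0441) and MAGEA1 (limma adjusted p = 0.00171), where 23.9% of all genes fell.

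The FPKM totals were 544210 and 459733 in the FGFR3-high CTBP2 libraries against 650097 and 659837 in the FGFR3-high EV libraries. The totals were then set equal, leaving out CTBP2 and immunoglobulin genes, of which only 2 had a row by symbol. This moved the median log2 fold change of all genes to 0.35, from 0.05 on the deposited scale. That of the 8 antigen genes moved to -0.26, from -0.66. With equal totals 3856 genes rose and 636 fell, against 2298 that rose and 1840 that fell as deposited. CTAG1B alone was called among the antigens with equal totals (log2 fold change -0.82, limma adjusted p = 0.0117), where 5.05% of all genes fell. CTAG2 had a log2 fold change of -0.67 (limma adjusted p = 0.0582) and PAGE5 of 0.52 (limma adjusted p = 0.0698), and SSX1 was at -0.01. The plot of all genes shows both scales.

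**Figure D2:**
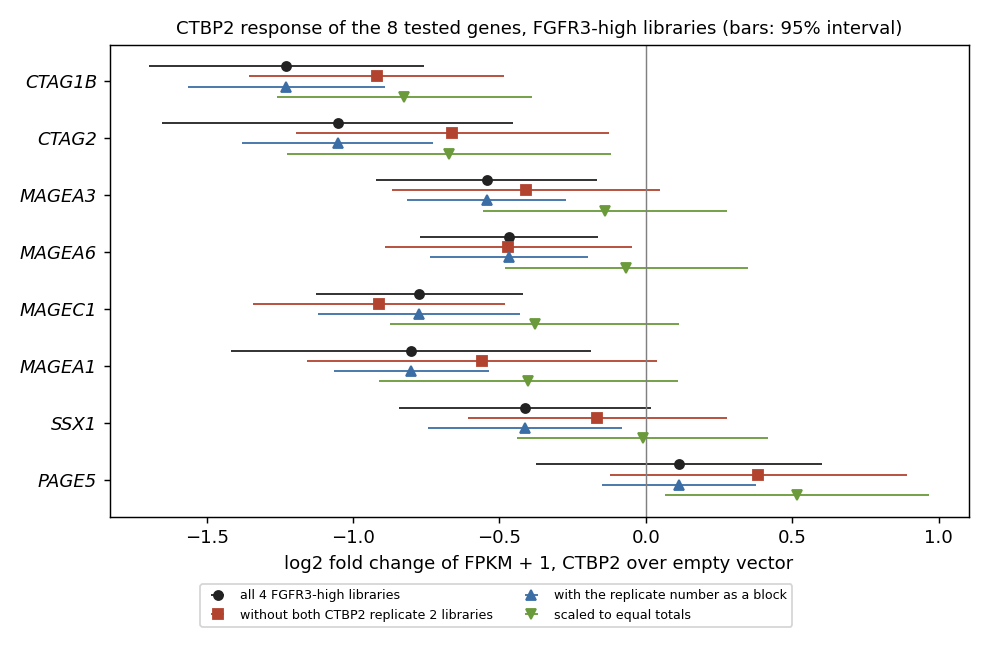
Log2 fold change of FPKM + 1, CTBP2 over empty vector, in FGFR3-high libraries (horizontal axis) for the 8 genes that passed the filter (vertical axis), with 95% intervals from limma, under 4 settings told apart by colour and marker. CTAG1B lies below 0 with its interval under every setting drawn, from -1.23 to -0.82, while PAGE5 lies above 0 in the settings drawn.

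**Figure D3:**
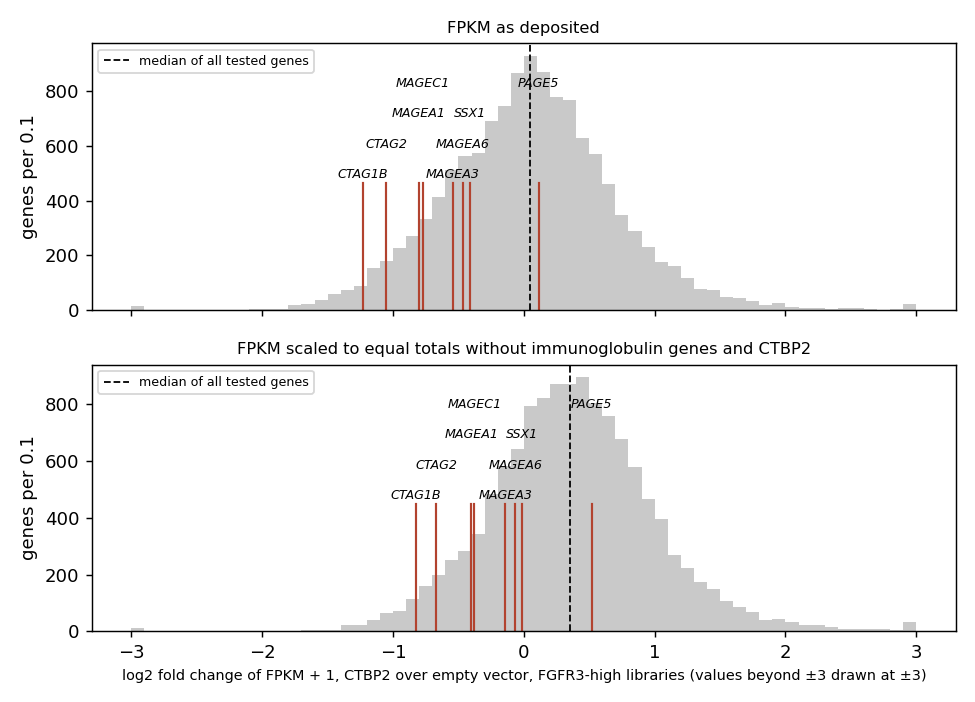
Number of genes (vertical axis, per step of 0.1) by log2 fold change, CTBP2 over empty vector, in FGFR3-high libraries (horizontal axis), for FPKM as deposited (top) and scaled to equal totals (bottom). Red lines mark the 8 antigen genes and the dashed line the median of the 12583 genes, which moves from 0.05 at the top to 0.35 below; 7 antigens lie left of that median on either scale and PAGE5 to its right.

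In the CCND2-high libraries MAGEA1 is the one antigen with a level to follow. It averaged 44.0 ± 12.6 FPKM in CTBP2 libraries and 61.1 ± 9.74 FPKM in EV libraries (SD, n = 2), a ratio of 0.720, or -0.48 on the log2 scale (SE 0.27, 95% interval -1.10 to 0.13, limma adjusted p = 0.281). The unadjusted p of the limma fit was 0.107, and 1.8% of all genes fell in this comparison, with 5.47% called in either direction. Without both CTBP2 replicate 2 libraries the log2 fold change was -0.77 (limma adjusted p = 0.0874). The other 7 genes that passed the filter did so through the FGFR3-high libraries and had no level here that could fall. With the replicate number as a block, MAGEA1 was called lower (SE 0.11, limma adjusted p = 0.0217). Across both lines together, where 16.7% of all genes fell, MAGEA1 was the one antigen called. It fell by 0.64 on the log2 scale (SE 0.19, limma adjusted p = 0.0288). It was -0.67 with both CTBP2 replicate 2 libraries left out (limma adjusted p = 0.0300), and with equal totals it was -0.35 (limma adjusted p = 0.101). The call was also lost with no filter (limma adjusted p = 0.0628), with quantile normalization (limma adjusted p = 0.0655) and in 5 of the 8 fits that leave out 1 library, with limma adjusted p of 0.0501 to 0.0882 in those 5. The other 7 genes have a level in FGFR3-high libraries only, so a fold change over both lines averages their values with libraries at or near 0.

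A difference of the CTBP2 effect between the lines can be read for MAGEA1 alone. The FGFR3-high effect minus the CCND2-high effect was -0.32 on the log2 scale, with a 95% interval of -1.19 to 0.55 (limma adjusted p = 0.773), and 0.21 without both CTBP2 replicate 2 libraries (limma adjusted p = 0.872), in a comparison where 1.26% of all genes passed, 0.334% towards a lower effect in FGFR3-high libraries. For the other 7 genes, at or near 0 in CCND2-high libraries with either vector, the fitted difference repeats the FGFR3-high effect and says nothing about how CTBP2 acts in the other line.

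A list of 114 other X-linked cancer-testis genes gives the surroundings. Of these, 101 had a row in the table, 28 reached 1 FPKM in some library, and 9 were at 0 throughout. At 1 FPKM as the limit in all libraries, 12 were on in FGFR3-high and off in CCND2-high libraries and 0 the other way round. Of the 12583 genes that passed the filter, 3.62% had the first pattern. The share of all genes with the reverse pattern was not counted. MAGEA4, another MAGE-A antigen and a T cell therapy target, was at 280 and 211 FPKM in FGFR3-high CTBP2 libraries and 199 and 186 FPKM in FGFR3-high EV libraries, and at or near 0 in CCND2-high libraries. Its log2 fold change in FGFR3-high libraries was 0.34, with a 95% interval of -0.04 to 0.72 (limma adjusted p = 0.147). MAGEA12 was at 49.5 and 36.8 FPKM in FGFR3-high CTBP2 libraries and 58.6 and 46.6 FPKM in FGFR3-high EV libraries, and at 2.82 and 1.24 FPKM in CCND2-high CTBP2 libraries and 1.11 and 0.670 FPKM in CCND2-high EV libraries. It was not called in either line (limma adjusted p = 0.453 in FGFR3-high and 0.184 in CCND2-high libraries), but without both CTBP2 replicate 2 libraries it was called higher in CCND2-high ones, by 1.03 on the log2 scale (limma adjusted p = 0.0324).

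Of these other genes, 18 passed the filter on low values. In FGFR3-high libraries 1 rose and 0 fell, where 14.6% of all genes fell and 32.9% were called in either direction. The median log2 fold change was -0.07, against -0.66 for the 8 antigen genes and 0.05 for all genes tested. With the replicate number as a block, 3 of the 18 fell, where 23.9% of all genes fell, and 2 rose. Without both CTBP2 replicate 2 libraries the median was 0.06, against -0.52 for the 8 antigen genes. The gene that rose, MAGEC3, a further member of the MAGE-C group, was at 0.540 and 1.25 FPKM in FGFR3-high CTBP2 libraries and 0.0319 and 0 FPKM in FGFR3-high EV libraries. In CCND2-high libraries, where it has its highest levels, it was at 6.29 and 6.69 FPKM with CTBP2 and 3.05 and 3.45 FPKM with EV. It was thus higher in CCND2-high libraries, unlike MAGEC1, and its CTBP2 values were above the EV values in both lines. The share of all genes with that order was not counted. Over both lines MAGEC3 rose by 0.85 on the log2 scale (SE 0.14, limma adjusted p = 0.00470). In CCND2-high libraries, through which it passed the filter, the rise was 0.82 (limma adjusted p = 0.0479), and 0.78 without both CTBP2 replicate 2 libraries. Among FGFR3-high libraries it was 0.87 (limma adjusted p = 0.0123), and 0.60, no longer called, without both CTBP2 replicate 2 libraries. There MAGEC3 was at or near 0 with EV and low with CTBP2, so its FGFR3-high call rests on values near the floor. CSAG3 was at 1.67 and 1.23 FPKM in CCND2-high CTBP2 libraries and 0.141 and 0.190 FPKM in CCND2-high EV libraries. In FGFR3-high libraries it was at 0.354 to 0.561 FPKM. It passed the filter only through the CCND2-high CTBP2 libraries, so its call as higher there is not an independent test. It did not pass the filter when both CTBP2 replicate 2 libraries were left out.

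**Figure D4:**
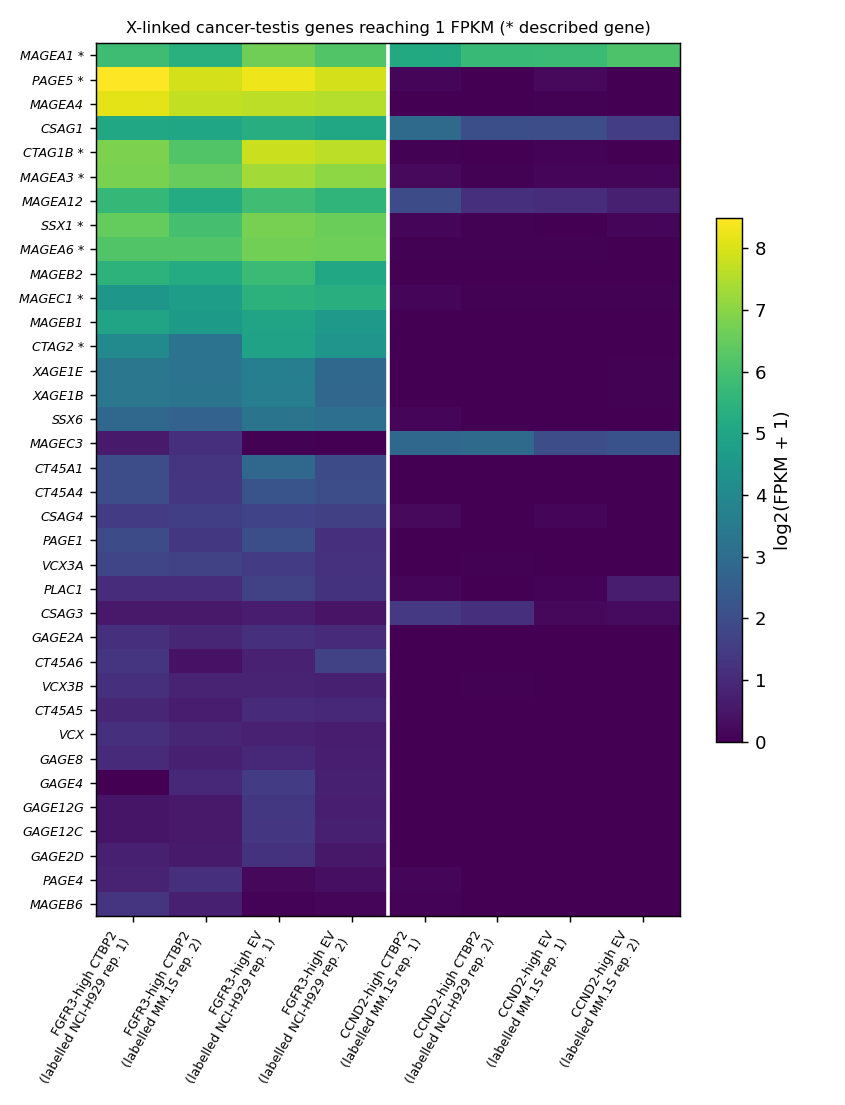
Log2(FPKM + 1), by colour, of the X-linked cancer-testis genes that reached 1 FPKM (rows, by mean level, described genes marked with an asterisk) in the 8 libraries (columns, FGFR3-high left of the white line and CTBP2 before empty vector in each line). Most rows are bright in the 4 FGFR3-high libraries alone, MAGEA1 is bright in all 8, and MAGEC3 is brighter in the CCND2-high ones.

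Off chromosome X, 53 autosomal cancer-testis genes were in the table, 15 reached 1 FPKM and 13 were tested. In FGFR3-high libraries 4 rose and 1 fell, near the 32.9% of all genes called in either direction, and 1 rose with both CTBP2 replicate 2 libraries left out. Among the 4 was TSSK6, at 1.84 and 1.68 FPKM in FGFR3-high CTBP2 libraries and 0.351 and 0.509 FPKM in FGFR3-high EV libraries. In CCND2-high libraries it was at most 0.837 FPKM. TSSK6 passed the filter only through the FGFR3-high CTBP2 libraries, so its call as higher there is not an independent test. PRAME, an antigen that acts as a substrate receptor of a ubiquitin ligase, was at 9.40 and 7.09 FPKM in FGFR3-high CTBP2 libraries and 6.25 and 5.53 FPKM in FGFR3-high EV libraries. In CCND2-high libraries it was at 14.7 and 15.3 FPKM with CTBP2, against 8.04 and 8.68 FPKM with EV. Over both lines PRAME rose by 0.59 on the log2 scale (SE 0.13, limma adjusted p = 0.0103). The rise was 0.67 when both CTBP2 replicate 2 libraries were left out (limma adjusted p = 0.0130). The meiosis gene SYCP3, from a list of 23 germ cell genes, had the reverse line pattern. It was at 0.172 FPKM or less in FGFR3-high libraries, against 47.8 and 52.9 FPKM in CCND2-high CTBP2 libraries and 48.3 and 65.4 FPKM in CCND2-high EV libraries.

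A list of 43 regulators of DNA methylation, chromatin and promoter activity was followed, of which 41 were tested. It holds silencers, the TET enzymes, which act against DNA methylation, and the activators SP1 and ETS1. Over both lines 12 fell and 4 rose, where 34.1% of all genes were called, and in FGFR3-high libraries 8 fell and 4 rose, where 32.9% were, so the counts are near the share of all genes. The 4 that rose in FGFR3-high libraries were TET2, DNMT3A, SP1 and ETS1. UHRF1, which brings the maintenance methyltransferase to newly replicated DNA, was at 11.2 and 4.40 FPKM in FGFR3-high CTBP2 libraries and 27.2 and 19.7 FPKM in FGFR3-high EV libraries, and fell over both lines by 1.41 on the log2 scale (limma adjusted p = 0.00748). HELLS, a chromatin remodeller needed for DNA methylation, fell by 0.96 (limma adjusted p = 0.00456), and DNMT1, the maintenance methyltransferase, by 0.59 (limma adjusted p = 0.0195). SUV39H2, a histone H3 lysine methyltransferase, fell by 0.88 (limma adjusted p = 0.00323). TET2, which oxidises methylated cytosine, rose by 0.81 (limma adjusted p = 0.00709), and so did DNMT3A, a methyltransferase that sets new DNA methylation, by 0.75 (limma adjusted p = 0.00951). These 6 genes were still called with both CTBP2 replicate 2 libraries left out, over both lines: UHRF1 at -1.33, HELLS at -1.02, DNMT1 at -0.56, SUV39H2 at -0.98, TET2 at 0.85 and DNMT3A at 0.59, with limma adjusted p of 0.00518 to 0.0388. With the replicate number as a block, 15 fell in FGFR3-high libraries, where 23.9% of all genes fell, and 7 rose. With both CTBP2 replicate 2 libraries left out, the median log2 fold change of the list there was -0.28, from 0.005. With equal totals the list split as 9 that rose and 5 that fell over both lines, where 3761 of all genes rose and 868 fell. The balance of the list thus turned with the scaling, as did that of all genes. Whether these changes have a part in the antigen levels was not tested.

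Some markers of other cell types were higher with CTBP2 in FGFR3-high libraries. The summed level of 16 such markers was 94.4 and 113 FPKM in FGFR3-high CTBP2 libraries against 44.7 and 51.6 FPKM in FGFR3-high EV libraries, and 34.7 and 23.9 FPKM in CCND2-high CTBP2 libraries against 20.9 and 24.0 FPKM in CCND2-high EV libraries. In FGFR3-high libraries 3 of the 7 that were tested rose and 0 fell, where 32.9% of all genes were called. In CCND2-high libraries 1 rose and 0 fell, where 5.47% of all genes were called, and the sums overlapped. The gene that rose there, EPCAM, reached 1 FPKM only in the CCND2-high CTBP2 libraries, through which it passed the filter. CD3E, a T cell receptor subunit, was at 16.7 and 53.1 FPKM in FGFR3-high CTBP2 libraries and 2.10 and 3.65 FPKM in FGFR3-high EV libraries, a rise of 3.02 on the log2 scale (limma adjusted p = 0.00510) and of 2.22 without both CTBP2 replicate 2 libraries (limma adjusted p = 0.00831). CD68, a macrophage and lysosome marker, was at 44.5 and 30.4 FPKM in FGFR3-high CTBP2 libraries and 17.3 and 23.6 FPKM in FGFR3-high EV libraries (limma adjusted p = 0.0445, and 0.0209 without both CTBP2 replicate 2 libraries). KRT18, an epithelial keratin, was at 26.3 and 22.7 FPKM in FGFR3-high CTBP2 libraries and 18.2 and 13.8 FPKM in FGFR3-high EV libraries (limma adjusted p = 0.0338, and 0.0688 without both CTBP2 replicate 2 libraries). Other markers were close to 0 in the same CTBP2 libraries: CD3D was at most 0.214 FPKM, CD14 at most 0.222 FPKM, LYZ at most 0.552 FPKM and COL1A1 at most 0.131 FPKM. PECAM1, HBA1 and HBB went the other way, with both FGFR3-high CTBP2 libraries below both EV libraries, though none was called. That order held for 31% of all genes tested. PECAM1 was at 3.27 and 3.83 FPKM with CTBP2 and 4.23 and 7.40 FPKM with EV. HBA1 was at 1.13 and 0.161 FPKM with CTBP2 and 1.54 and 1.31 FPKM with EV. HBB was at 0.323 and 0.308 FPKM with CTBP2 and 0.486 and 0.358 FPKM with EV. The part of these markers in the antigen levels was not tested. The summed level of the 12 plasma cell markers was 4544 and 6582 FPKM in FGFR3-high CTBP2 libraries and 5826 and 6697 FPKM in FGFR3-high EV libraries, and the groups overlapped. IGJ, the antibody joining chain, makes up much of that sum, at 2174 and 3931 FPKM in FGFR3-high CTBP2 libraries and 2788 and 3119 FPKM in FGFR3-high EV libraries. Of the 12, 3 fell and 2 rose in FGFR3-high libraries, where 14.6% of all genes fell and 32.9% were called in either direction. IRF4, a plasma cell transcription factor, was at 66.8 and 69.6 FPKM with CTBP2 and 132 and 160.3 FPKM with EV. It fell by 1.08 on the log2 scale (limma adjusted p = 0.00375), and by 1.11 without both CTBP2 replicate 2 libraries. TNFRSF17 and MZB1 fell and FCRL5 and CD38 rose, and of these 4 FCRL5 was still called without both CTBP2 replicate 2 libraries (limma adjusted p = 0.00424).

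Of the genes beside the antigens on chromosome X, some were on in both lines and some differed between them. In RefSeq gene order, IKBKG, an NF-kB regulator next to the CTAG genes, was at 21.8 to 30.4 FPKM in FGFR3-high and 13.4 to 19.7 FPKM in CCND2-high libraries. CETN2, a centrosome gene beside MAGEA6, was at 8.91 to 21.0 FPKM in FGFR3-high and 14.8 to 19.0 FPKM in CCND2-high libraries. PNMA6A, next to MAGEA1, was at 3.55 to 7.91 FPKM in FGFR3-high and at most 0.0119 FPKM in CCND2-high libraries, while MAGEA1 itself was on in both. LDOC1, on the lower-coordinate side of MAGEC1, had the reverse pattern, at most 0.0762 FPKM in FGFR3-high and 4.54 to 9.46 FPKM in CCND2-high libraries. Over the 8 libraries and outside the lists, the gene with the closest pattern to CTAG1B was EEF1A2, with a root mean square difference of centred log2(FPKM + 1) of 0.28. PFKP was closest to MAGEA3, MAGEA6 and SSX1, at 0.22, 0.20 and 0.11, CD81 to MAGEC1, at 0.21, GLB1L2 to CTAG2, at 0.19, and NES to PAGE5, at 0.40. MAGEA1, which varied less, was closest to DDX49, at 0.07. The distances include the line pattern.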

How the data were processed

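RNA of 8 libraries was measured. The submitters' processing notes name the aligner STAR 2.6.0b-1, the counter HTSeq 0.9.1 and the build GRCh37 (hg19), with no order. The values analysed are FPKM as deposited by the authors, for 25906 genes; which tool and annotation made them is not given in the sources used here. Fragments that map to near-identical copies can be split or lost, and FPKM depends on what else takes up the library.

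Tests used limma 3.58.1 (R 4.3.3; moderated statistics with an intensity trend) on log2(FPKM + 1), for 12583 genes that reached 1 FPKM in 2 or more libraries, with Benjamini-Hochberg adjustment over all of them. A fold change on that scale understates the change of low genes. The code was tested on simulated data. CTBP2 was compared with empty vector in each line, over both lines and as a difference between lines, with the line read from CCND2 and FGFR3 at 10 FPKM. The alternatives were another pseudocount, no filter, 3 rescalings, line as labelled, leaving out libraries, and the replicate number as a block. Same-numbered CTBP2 and EV libraries deviated together within each line, with correlations over genes of 0.452 in FGFR3-high and 0.435 in CCND2-high libraries. The numbers were taken as pairs in the replicate block setting only, from the data and not from the labels. The main fits treat the libraries as unpaired. The genes and lists were chosen with earlier results of these data known. Named were the 10 genes, the line and vector checks, up to 6 of each list by level and up to 4 by smallest p, and the closest patterns. RefSeq promoters (GRCh38.p14) were matched by gene identifier, for 7 of 10 genes.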

Additional observations from a re-analysis of the deposited data

How the results depend on the processing

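Counts are antigen genes called, of 8 tested, then all genes called. In FGFR3-high libraries (5 antigens, 4138 genes) the antigens were 3 with a pseudocount of 0.1, 3 with quantile normalization, 1 with equal totals, 0 with the line as labelled (7 genes), and 2 without both CTBP2 replicate 2 libraries (1849 genes); the replicate block gave 6475 genes. Over both lines (1 antigen, 4287 genes) the antigens were 0 with no filter (3538 genes) and with quantile normalization (3719 genes). They were also 0 with equal totals (4629 genes) and with the line as labelled (420 genes). In CCND2-high libraries (0 antigens, 688 genes) the replicate block gave 1 antigen and 3543 genes, no filter 384 genes, the line as labelled 3 genes, and leaving out both CTBP2 replicate 2 libraries 1492 genes. Of the antigens, only MAGEA1 has a level there. For the difference between lines (0 antigens, 158 genes) the replicate block gave 2 antigens, CTAG1B and CTAG2, which repeats their fall in FGFR3-high libraries, and 1070 genes, the pseudocount of 0.1 gave 67 genes, the line as labelled 2 and leaving out both CTBP2 replicate 2 libraries 17. Beside the calls given with the results, the block changed no other call of an antigen. The equal totals turned the split of calls to 3761 higher and 868 lower over both lines, against 2186 and 2101 as deposited, and to 580 and 97 in CCND2-high libraries, against 462 and 226.

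Leaving out 1 library at a time, 1 to 7 antigens were called in FGFR3-high libraries (976 to 4869 genes), 0 to 1 over both lines (2452 to 4417 genes), 0 in CCND2-high libraries (6 to 1514 genes) and 0 to 1 for the difference (5 to 208 genes). CTAG1B was called in FGFR3-high libraries in each of these fits, with log2 fold changes of -1.54 to -0.92, and was the only one called without NCI-H929 EV replicate 1. Without MM.1S EV replicate 2, 3 were called (3363 genes). Leaving out any FGFR3-high library leaves a single library in its group, so effect sizes follow. The median log2 fold change of the 8 antigen genes was -0.67 without NCI-H929 CTBP2 replicate 1 and -0.76 without NCI-H929 EV replicate 2. It was -0.51 without NCI-H929 EV replicate 1 and -0.52 without the one labelled MM.1S CTBP2 replicate 2. The call of MAGEA1 over both lines was lost without any of MM.1S CTBP2 replicate 1, MM.1S EV replicate 2, NCI-H929 EV replicate 1, NCI-H929 EV replicate 2 or the library labelled MM.1S CTBP2 replicate 2. Its log2 fold change stayed between -0.79 and -0.52.

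The sign turned only for uncalled genes. In FGFR3-high libraries PAGE5 was at -0.0095 with the median-of-ratios rescale and at -3.86 with the line as labelled, and over both lines it was at -0.014 with the median-of-ratios rescale. Leaving out 1 library took it to as low as -0.075 over both lines (highest 0.14) and -0.16 in FGFR3-high libraries (highest 0.38), being negative without NCI-H929 CTBP2 replicate 1 and without NCI-H929 EV replicate 2. SSX1 was at 0.024 over both lines with equal totals. The cause was not tested. With no filter PAGE2 and MAGEC2 enter. In FGFR3-high libraries 4 of 10 antigens were then called (4089 of 21810 genes): MAGEC1, CTAG1B and MAGEA6 lower and MAGEC2 higher. CTAG2 and MAGEA3 lost their calls. MAGEC2 had a log2 fold change of 0.23 (limma adjusted p = 0.0430), while 1 fragment on its transcript is about 0.0270 FPKM. Its values of 0.302 and 0.178 FPKM with CTBP2 and 0.0267 and 0.0886 FPKM with EV thus rest on few fragments. Depth limits what can be said of PAGE2 and MAGEC2. For the 8 genes tested, the number of libraries limits the precision.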
